A study of Mus musculus with 21 samples.

Results

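The genes described here encode the subunits of heterotrimeric G proteins, the proteins that regulate signaling by G protein-coupled receptors (GPCRs), and receptors named by Gpr or Adgr symbols. They were chosen by gene symbol alone: Gna, Gnb and Gng subunits, Rgs genes, Grk kinases and beta-arrestins, Gprasp and Gprin genes, numbered Gpr genes, and the adhesion GPCRs of the Adgra to Adgrg families. Of 170 symbols of the mouse annotation that fit these names, 54 were among the 5544 genes of the deposited cortex table, and these 54 genes are the members described below. A symbol outside the table was not measured here, so nothing is said of its level.

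The libraries were made from the cortex of male C57BL/6 mice aged 12 weeks, labeled WT (wild type), with no transgene or allele named. The HF-HI group (high-frequency head impact) held 11 mice that received 5 impacts per day for 6 days, 30 in total, and the sham group held 10 mice that were handled and anesthetized alike and not impacted. Brains of both groups were collected 24 h after the last session. Each library is 1 mouse, and the values are stabilized read counts on a log2 scale, so a difference of 1 is close to a doubling at high levels and an understated one at low levels. The values are not corrected for gene length, and levels are therefore compared between groups and not between genes. In bulk cortex, fewer cells of a type and less RNA per cell cannot be told apart.

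Heterotrimeric G proteins relay signals from receptors at the cell surface. An activated receptor makes the alpha subunit exchange GDP for GTP, after which alpha and the beta-gamma dimer act on separate effectors. Gi/o alpha subunits inhibit adenylyl cyclase, Gs and Golf stimulate it, Gq and G11 activate phospholipase C beta, and G12 and G13 act on guanine nucleotide exchange factors that shape the actin cytoskeleton. RGS proteins end the signal by speeding GTP hydrolysis on alpha, and GRK kinases with arrestins uncouple and internalize the receptor. In the cortex these proteins set the strength and duration of neuromodulator signals such as those of acetylcholine, dopamine, glutamate and GABA.

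The promoters of 4 members are shown because they belong to the member with the largest rise (Gnb1) and to 3 members that fell (Gng10, Gpr22 and Rgs4). They were taken from RefSeq promoters of GRCm38.p6, over the 250 bases before the RefSeq start, less any base in an annotated exon. Each is written 5′ to 3′ on the strand of the gene. Capitals mark matches, on either strand, to the searched motifs: the cyclic AMP response element (CRE, TGACGTCA), its half-site TGACG, AP-1 (TGANTCA), EGR (GCGTGGGCG), the GC box GGGCGG and the TATA box TATAAA. A full CRE also counts as a half-site, and an EGR match can overlap a GC box.
Gnb1, chr4:155491111-155491360, plus strand: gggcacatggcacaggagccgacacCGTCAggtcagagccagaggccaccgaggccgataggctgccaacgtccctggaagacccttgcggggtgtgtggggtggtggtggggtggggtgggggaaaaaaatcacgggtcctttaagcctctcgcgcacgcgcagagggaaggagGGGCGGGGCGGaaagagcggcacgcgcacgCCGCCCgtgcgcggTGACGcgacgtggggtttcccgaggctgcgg
Gng10, chr4:59034906-59035087, plus strand: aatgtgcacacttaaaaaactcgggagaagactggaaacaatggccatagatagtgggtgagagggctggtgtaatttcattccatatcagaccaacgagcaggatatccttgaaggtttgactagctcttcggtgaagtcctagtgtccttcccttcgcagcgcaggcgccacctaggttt
Gpr22, chr12:31713948-31714133, minus strand: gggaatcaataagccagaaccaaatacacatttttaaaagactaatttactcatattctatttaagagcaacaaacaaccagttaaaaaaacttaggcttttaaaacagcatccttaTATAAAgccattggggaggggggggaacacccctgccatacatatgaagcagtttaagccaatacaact
Rgs4, chr1:169747643-169747892, minus strand: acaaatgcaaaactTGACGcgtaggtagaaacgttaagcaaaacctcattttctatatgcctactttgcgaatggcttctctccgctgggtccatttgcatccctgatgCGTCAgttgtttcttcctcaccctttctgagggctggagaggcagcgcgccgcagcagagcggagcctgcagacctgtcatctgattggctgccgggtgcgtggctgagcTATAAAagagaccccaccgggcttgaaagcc

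The Gnb1 stretch had a GC content of 69.2% with 26 CpG dinucleotides, 3 GC boxes and 2 CRE half-sites. The Gpr22 stretch had a GC content of 36.0%, no CpG and a TATA box, and the Gng10 stretch had 48.4%, 6 CpGs and none of the motifs. Rgs4 had 53.6%, 13 CpGs, 2 CRE half-sites and a TATA box. Over the full 250 bases, 43 of the 54 members had a promoter in the table. A CRE half-site was found in 6 of the 17 promoters of members that rose, in 4 of the 12 of members that fell and in 0 of the 14 others, against 17.8% of all 32851 promoters. A GC box was found in 7, 6 and 8 of these promoters (32.7% of all), a TATA box in 1, 3 and 2 (12.4%), AP-1 in 0, 1 and 1 (6.75%), and neither a full CRE (1.55%) nor EGR (0.536%) in any. Median CpG counts were 21, 14 and 15.5 in the 3 sets of members and 6 over all promoters. The motif hits are matches of letters and were not read as bound sites. The set of all 32851 promoters was not limited to genes of the cortex table. Repeated promoters of a gene were dropped for the members and not for that set.

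HF-HI mice had higher levels of 23 of the 54 members and lower levels of 12, with 19 not past the threshold (limma, two-sided, Benjamini-Hochberg adjusted p under 0.05 over all 5544 genes, as for every adjusted p of a single gene below). The change covered 64.8% of the members against 66.3% of the whole table, a share near the background. In the table as a whole 32.6% of genes were higher and 33.6% lower, against 42.6% and 22.2% of the members. The largest differences were rises: 7 members were higher by at least 0.5 on the log2 scale (5.74% of all genes), and none was lower by that much (0.234%). In 5 members, Gnb1, Gng3, Gnao1, Adgrb1 and Adgrb2, every HF-HI mouse lay above every sham mouse (8.71% of all genes). No member had every HF-HI mouse below (4.76%). The median difference over the 54 members was 0.069, against -0.0086 over all genes. With each library centred on its own median, 18 members were higher and 17 lower (26.1% and 42.9% of the table, or 69.0% in either direction).

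The difference between the groups followed the GC content of a gene's exons, in the table and in the members, so each member's difference is also given with that trend removed from every library. With the trend removed, 13 members were higher and 11 lower, against 29.2% and 31.0% of the table (60.2% in either direction), and the median difference was -0.00038. The plot of differences by class gives both values.

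**Figure D1:**
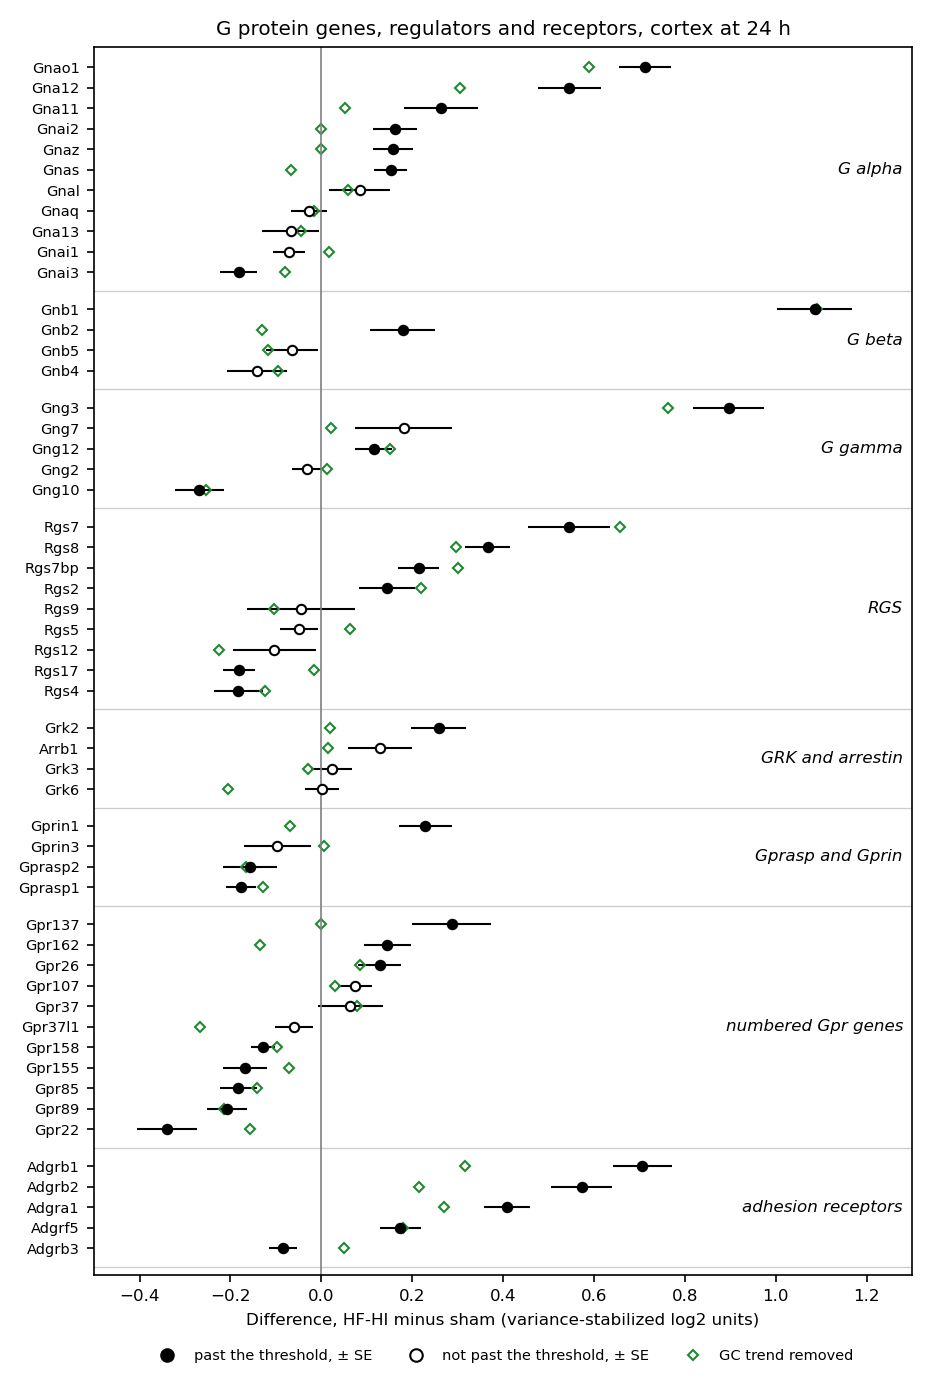
Difference between HF-HI (n = 11) and sham (n = 10) in variance-stabilized log2 units on the horizontal axis, for 53 of the genes grouped by class on the vertical axis. Circles with bars are the limma difference ± SE, filled where the adjusted p was under 0.05, and green diamonds are the difference with the GC trend removed. Gnb1 at 1.09 has circle and diamond on the same spot, while Gpr137 and Gprin1 have diamonds near 0.

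The beta and gamma subunits form the dimer that opens potassium channels and inhibits calcium channels. Gnb1 (ENSMUSG00000029064, chr4:155491361-155559269, plus strand, mm10) encodes a widely used beta subunit, and its promoter is the first sequence above. Its level ran from 11.46 through a median of 11.94 to 12.35 in sham and from 12.87 through 12.99 to 13.10 in HF-HI. All 11 HF-HI mice were above all sham mice, and the spread was wider in sham (SD 0.29) than in HF-HI (SD 0.068). Sham values mostly climbed with the library number, from 11.57 in sham 1 and 11.46 in sham 3 to 12.35 in sham 10. HF-HI values did not, with 12.95 in HF-HI 1 and 12.89 in HF-HI 10. The cause of this order in sham was not tested. The rise in HF-HI of 1.09 ± 0.082 (SE, adjusted p = 3.8e-10) was the largest of the 54, and it was 1.09 with the GC trend removed.

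The other 3 beta subunits differed by less. Gnb2 was higher by 0.18 ± 0.071 (adjusted p = 0.030), a call that was lost without sham 6, sham 10, HF-HI 1, HF-HI 4 or HF-HI 6 (differences of 0.14 to 0.17), and its difference was -0.13 with the GC trend removed (adjusted p = 0.060). With relative depth as a covariate Gnb2 differed by 0.095 (adjusted p = 0.17). Gnb4 differed by -0.14 (adjusted p = 0.062) and Gnb5, the partner of the R7 family of RGS proteins, by -0.064 (adjusted p = 0.33), neither past the threshold. Gnb5 was past it with the depth covariate (-0.12, adjusted p = 0.044).

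Gng3 (ENSMUSG00000071658, chr19:8836933-8839194, minus strand), a gamma subunit of neurons, rose with Gnb1. Its level ran from 8.14 through 8.57 to 8.88 in sham and from 9.24 through 9.45 to 9.53 in HF-HI, again with no overlap. As for Gnb1, sham values mostly climbed with the library number, from 8.34 in sham 1 and 8.14 in sham 3 to 8.80 in sham 10. The rise in HF-HI was 0.90 ± 0.078 (adjusted p = 2.8e-09) and 0.76 with the GC trend removed. Of the 1643 exonic bases of Gng3, 398 overlap Bscl2 on the opposite strand. Bscl2 was itself higher by 0.30 (adjusted p = 9.8e-06), and reads of the shared bases may be split between these genes, since the strand setting of the counting is not given in the sources used here.

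Gng10 (ENSMUSG00000038607, chr4:59035088-59041903, plus strand) was the gamma subunit that fell. It ran from 8.61 through 8.69 to 8.95 in sham and from 8.19 through 8.44 to 8.68 in HF-HI, where 9 of 11 mice were below every sham mouse. The fall was -0.27 ± 0.054 (adjusted p = 0.00016) and -0.25 with the GC trend removed. The annotation places 946 of its 1314 exonic bases also in the gene Gm20503 on the same strand, so its count is uncertain. Gng12 was higher by 0.12 (adjusted p = 0.016), and Gng7 and Gng2 differed by 0.18 and -0.032, not past the threshold.

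Among the 11 alpha subunits 6 were higher and 1 lower, or 63.6% called against 66.3% of all genes. With the GC trend removed 2 remained higher (29.2% of all genes). Gnao1 (ENSMUSG00000031748, chr8:93809966-93969388, plus strand), the Go alpha subunit that is abundant in neurons, ran from 11.27 through 11.44 to 11.64 in sham and from 11.97 through 12.10 to 12.41 in HF-HI. The groups did not overlap. It rose by 0.71 ± 0.057 (adjusted p = 9.0e-10), and by 0.59 with the GC trend removed.

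Gna12 (chr5:140758408-140830431, minus strand), which acts on guanine nucleotide exchange factors, ran from 8.99 through 9.29 to 9.56 in sham and from 9.43 through 9.84 to 10.03 in HF-HI. In HF-HI, 10 of 11 mice were above the highest sham mouse. It rose by 0.55 ± 0.069 (adjusted p = 5.6e-07), and by 0.31 with the GC trend removed. Its relative Gna13 differed by -0.068 (adjusted p = 0.34). Amz1, a gene outside the table, overlaps 456 of the 3416 exonic bases of Gna12 on the opposite strand.

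The other 4 rises among alpha subunits were smaller. Gna11 of the Gq family was higher by 0.26, Gnai2 and Gnaz of the Gi family by 0.16 each, and Gnas, which encodes the stimulatory subunit, by 0.15 (adjusted p = 0.0072, 0.0059, 0.0028 and 0.00084). With the GC trend removed these were 0.052, -0.00092, -0.00039 and -0.066, none past the threshold. Gnai3 (chr3:108107280-108146146, minus strand) ran from 8.78 through 8.92 to 9.02 in sham and from 8.61 through 8.70 to 8.97 in HF-HI. Its HF-HI values were below every sham mouse in 9 of 11 mice. It fell by 0.18 ± 0.041 (adjusted p = 0.00048), and the difference was -0.079 with the trend removed (adjusted p = 0.089). Gnaq, Gnai1 and Gnal differed by -0.027, -0.070 and 0.085, not past the threshold.

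**Figure D2:**
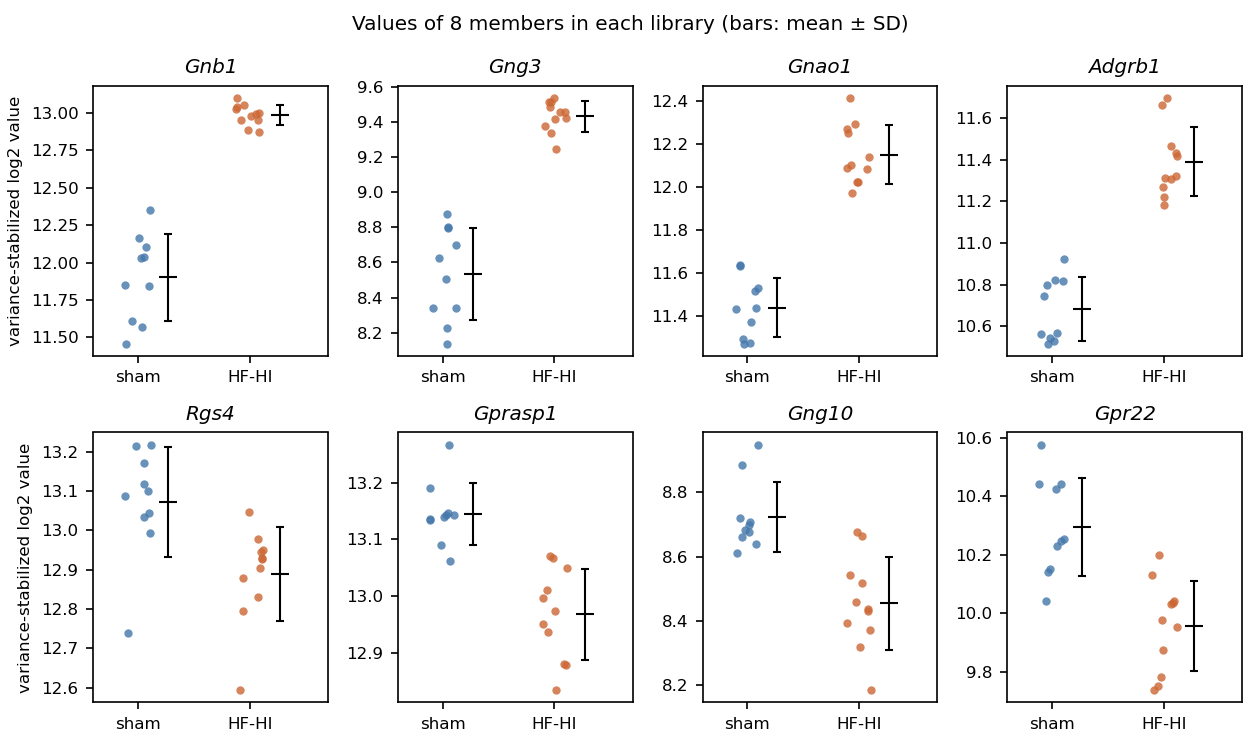
Variance-stabilized log2 values (vertical axis) of 8 genes in each sham (blue, n = 10) and HF-HI (orange, n = 11) library, with the mean ± SD beside the points. The groups are apart in the top row, where Gnb1 has no HF-HI value under 12.87, and overlap in the bottom row, where 1 sham library lies far under the others for Rgs4.

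Of the 9 Rgs genes, which include the anchor gene Rgs7bp, 4 were higher and 2 lower, or 66.7% called against 66.3% of all genes. Rgs7 (chr1:175059087-175492500, minus strand), which acts on Go with Gnb5, ran from 7.71 through 8.17 to 8.68 in sham and from 8.56 through 8.69 to 8.99 in HF-HI. All 11 HF-HI mice were above the sham median and 6 above the highest sham mouse, and the spread was wider in sham (SD 0.31 against 0.11). Here too sham values mostly climbed with the library number, from 7.86 in sham 1 and 7.71 in sham 2 to 8.68 in sham 10. Rgs7 rose by 0.55 ± 0.091 in HF-HI (adjusted p = 1.8e-05), and by 0.66 with the GC trend removed. Rgs7bp, which tethers Rgs7 to the membrane, was higher by 0.21 ± 0.045 (adjusted p = 0.00023), or 0.30 with the trend removed. Both rose, while Gnb5, which binds the Rgs7 protein, was not past the threshold. With relative depth as a covariate Gnb5 was past it and lower (-0.12, adjusted p = 0.044).

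Rgs8 (chr1:153653025-153700323, plus strand) ran from 9.17 through 9.34 to 9.57 in sham and from 9.54 through 9.72 to 9.92 in HF-HI. The HF-HI values overlapped the sham values in 1 mouse. It rose by 0.37 ± 0.049 (adjusted p = 1.1e-06), and by 0.30 with the GC trend removed. Rgs2, a regulator of Gq that neuronal activity induces, was higher by 0.14 ± 0.062 (adjusted p = 0.043), a call that held in 7 of the 21 fits that left out 1 library. The 4 immediate early genes of the table, Arc, Egr1, Junb and Nr4a1, were all higher, by 0.97 to 1.60 on the log2 scale, and their part in the Rgs2 result was not tested.

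Rgs4 (chr1:169741477-169747642, minus strand), a regulator of Gi/o and Gq in cortical neurons, was lower. It ran from 12.74 through 13.09 to 13.22 in sham and from 12.59 through 12.93 to 13.05 in HF-HI. All 11 HF-HI mice were below the sham median, though 1 sham mouse was lower than 10 of them. It fell by 0.18 ± 0.054 (adjusted p = 0.0047), and the difference was -0.12 with the GC trend removed (adjusted p = 0.056). Rgs17 fell by 0.18 ± 0.034 (adjusted p = 8.5e-05), and differed by -0.017 with the trend removed. Rgs5, Rgs9 and Rgs12 differed by -0.049, -0.045 and -0.10, not past the threshold.

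Of the kinases and arrestins, which end receptor signaling at the receptor, Grk2 was the member called. Grk2 (chr19:4286001-4306222, minus strand) ran from 9.80 through 10.13 to 10.30 in sham and from 10.03 through 10.37 to 10.53 in HF-HI. In 8 of 11 HF-HI mice it was above every sham mouse. It rose by 0.26 ± 0.061 (adjusted p = 0.00080), and differed by 0.020 with the GC trend removed. Arrb1 (beta-arrestin 1), Grk3 and Grk6 differed by 0.13, 0.022 and 0.0017, not past the threshold. Arrb1 was past it without HF-HI 9 (0.17, adjusted p = 0.015). Grk6 was lower by 0.21 with the GC trend removed (adjusted p = 4.0e-05).

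The Gprasp genes encode proteins that sort receptors to lysosomes, and the Gprin genes encode targets of active Gi/o subunits in neurites. Gprasp1 (chrX:135742733-135803474, plus strand) ran from 13.06 through 13.14 to 13.27 in sham and from 12.83 through 12.97 to 13.07 in HF-HI. In 9 of 11 HF-HI mice it was below every sham mouse. It fell by 0.18 ± 0.032 (adjusted p = 5.3e-05) and by 0.13 with the GC trend removed (adjusted p = 0.0031). Gprasp2 was lower by 0.16 ± 0.060 (adjusted p = 0.025), a call that was lost without sham 5 or without sham 9 (differences of -0.13 and -0.14). Both overlap other genes of the strand, 456 of 8119 exonic bases with Armcx5 and 36 with Bhlhb9 for Gprasp1, and 376 of 4540 with Bhlhb9 for Gprasp2, and neither of these genes passed the threshold.

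Gprin1 (chr13:54736671-54749874, minus strand) ran from 9.56 through 9.77 to 9.97 in sham and from 9.67 through 10.01 to 10.18 in HF-HI. In 10 of 11 HF-HI mice it was above every sham mouse. The exception, HF-HI 9, was also the exception for Gna12 and for Adgra1. Gprin1 rose by 0.23 ± 0.058 (adjusted p = 0.0015), and the difference was -0.069 with the GC trend removed, not past the threshold. Gprin3 differed by -0.097, not past the threshold.

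Of the 12 numbered Gpr genes 3 were higher and 5 lower, where 32.6% and 33.6% of all genes were, and 0 were higher and 6 lower with the GC trend removed (29.2% and 31.0% of all genes). No test compared the class with the other genes. The Gpr symbol is not proof of a receptor: Gpr89 encodes a Golgi pH regulator and Gpr155 a lysosomal cholesterol sensor. Gpr22 (ENSMUSG00000044067, chr12:31706867-31713947, minus strand), a receptor with no established ligand, ran from 10.04 through 10.25 to 10.58 in sham and from 9.74 through 9.98 to 10.20 in HF-HI. In 8 of 11 HF-HI mice it was below every sham mouse. It fell by 0.34 ± 0.066 (adjusted p = 0.00011), the largest fall of the 54, and by 0.16 with the GC trend removed (adjusted p = 0.0057).

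Gpr89 was lower by 0.21 ± 0.044, Gpr85 by 0.18 ± 0.041, Gpr155 by 0.17 ± 0.049 and Gpr158 by 0.13 ± 0.027 (adjusted p = 0.000275, 0.00053, 0.0043 and 0.00025). In all 4 the 11 HF-HI mice were below the sham median. With the GC trend removed the differences were -0.21, -0.14, -0.072 and -0.098, and Gpr155 was no longer past the threshold. Pdzk1, a gene outside the table, overlaps 1333 of the 5365 exonic bases of Gpr89 on the opposite strand. Gpr158 is a receptor that binds the Rgs7 and Gnb5 proteins, and it fell while Rgs7 rose.

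Gpr137 (chr19:6938057-6942480, minus strand), a lysosomal membrane protein gene, ran from 8.01 through 8.37 to 8.59 in sham and from 8.14 through 8.70 to 8.85 in HF-HI. In 8 of 11 HF-HI mice it was above every sham mouse. It rose by 0.29 ± 0.087 (adjusted p = 0.0057), and differed by -0.00038 with the GC trend removed. Bad, a gene outside the table, overlaps 524 of the 3396 exonic bases of Gpr137 on the opposite strand. Gpr162 and Gpr26 were higher by 0.15 and 0.13 (adjusted p = 0.016 and 0.021), and differed by -0.13 and 0.085 with the trend removed, where Gpr162 was past the threshold in the other direction (adjusted p = 0.0051). Without the 3 libraries apart in striatal markers, HF-HI 3, HF-HI 4 and HF-HI 5, neither was past the threshold, at 0.11 each, and with relative depth as a covariate Gpr162 was not (0.0998, adjusted p = 0.081). Gpr37, Gpr37l1 and Gpr107 differed by 0.063, -0.060 and 0.075, not past the threshold. Gpr37l1, which astrocytes express, was lower by 0.27 with the trend removed (adjusted p = 4.5e-06), and of the 13 measured astrocyte markers, 5 were higher and 3 lower as deposited (median difference 0.0084) and 4 higher and 6 lower with the trend removed (median -0.088). The part of the astrocyte markers in the Gpr37l1 result was not tested.

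Of the 5 adhesion receptors, which have large extracellular domains that bind other cells or matrix, 4 were higher and 1 lower, with a median difference of 0.41. Over all genes 32.6% were higher and 33.6% lower, and no test compared the class with the other genes. Adgrb1 (ENSMUSG00000034730, chr15:74516195-74589465, plus strand), also known as brain angiogenesis inhibitor 1 and present at excitatory synapses and in glia, ran from 10.52 through 10.66 to 10.92 in sham and from 11.18 through 11.32 to 11.69 in HF-HI. It rose by 0.71 ± 0.066 (adjusted p = 7.5e-09), with no overlap, and by 0.32 with the GC trend removed. Adgrb2 (chr4:129984870-130022633, plus strand) ran from 11.18 through 11.33 to 11.68 in sham and from 11.82 through 11.96 to 12.22 in HF-HI. It rose by 0.57 ± 0.066 (adjusted p = 1.6e-07), with no overlap, and by 0.21 with the trend removed.

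Adgra1 (chr7:139834174-139878088, plus strand) ran from 8.69 through 8.81 to 9.04 in sham and from 8.89 through 9.27 to 9.34 in HF-HI. In 10 of 11 HF-HI mice it was above every sham mouse. It rose by 0.41 ± 0.051 (adjusted p = 3.9e-07), and by 0.27 with the GC trend removed. Adgrf5, of endothelial cells, was higher by 0.17 (adjusted p = 0.0017) and by 0.18 with the trend removed. The endothelial and mural markers in the table were Flt1, higher by 0.28, Slco1a4, lower by 0.24, and Vtn at -0.089, not past the threshold, and their part in the Adgrf5 result was not tested.

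Adgrb3 (chr1:25067476-25829707, minus strand) was the adhesion receptor that was lower. It ran from 11.55 through 11.67 to 11.71 in sham and from 11.44 through 11.59 to 11.65 in HF-HI. All 11 HF-HI mice were below the sham median. The difference was -0.085 ± 0.030 (adjusted p = 0.017), and 0.050 with the GC trend removed (adjusted p = 0.25).

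Within a library, the log2 ratio of 2 related genes would not depend on how the library was scaled if the values were plain logarithms. With stabilized values this holds closely at high levels and only in part at low ones. Of 19 such ratios, 15 differed between the groups (permutation test with 100000 resamples, two-sided, adjusted p over the 19), 7 of them without overlap, and 9 of the 15 kept their sign and side of the threshold with the GC trend removed. No share over other gene pairs was computed. Of all single genes, 66.3% were called and 13.5% did not overlap. The ratios are not separate results, since several share a gene such as Gnb1 or Adgrb1, and they partly restate the single-gene calls. The log2 ratio of Gnb1 to Gnb4 averaged 2.88 in the 10 sham mice (SD 0.31) and 4.11 in the 11 HF-HI mice (SD 0.20), a difference of 1.23 (permutation test, adjusted p = 9.5e-05, which corresponds to p = 4e-05, the smallest that these resamples gave). The ratio of Gnb1 to Gnb5 differed by 1.15 and that of Gnb1 to Gnb2 by 0.91, or 1.21 and 1.22 with the GC trend removed. Gnb1 thus rose relative to each other beta subunit of the table.

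The log2 ratio of Gng2 to Gng3 was 2.42 ± 0.27 (SD) in sham and 1.49 ± 0.11 (SD) in HF-HI, and fell by 0.93 (-0.75 with the GC trend removed). Gna12 was below Gna13 in all 10 sham mice, with a log2 ratio between -0.72 and -0.26, and lay between -0.0018 and 0.31 in HF-HI, a difference of 0.61 (0.35 with the trend removed). The ratio of Gnao1 to Gnaz differed by 0.55 (0.59) and that of Rgs2 to Rgs4 by 0.33 (0.34). Ratios of Adgrb1 and of Adgrb2 to Adgrb3 differed by 0.79 and 0.66 (0.27 and 0.16). The levels in these ratios are not length-corrected, so the value of a ratio says nothing of which gene has more transcripts.

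Other ratios did not hold. Those of Gnaq to Gna11, Gnai1 to Gnai2, Gnai2 to Gnai3, Grk2 to Grk3 and Gprin1 to Gprin3 were past the threshold as deposited and not with the GC trend removed, with differences then of -0.069, 0.019, 0.079, 0.048 and -0.075. The ratio of Adgrb1 to Adgrb2 differed by 0.13, and by 0.10 with the trend removed (adjusted p = 0.052). Gnas to Gnal, Gng7 to Gng12, Gprasp1 to Gprasp2 and Gpr37 to Gpr37l1 were not past the threshold (0.068, 0.066, -0.020 and 0.12), and the last was past it with the trend removed (0.35, permutation test, adjusted p = 0.0013).

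**Figure D3:**
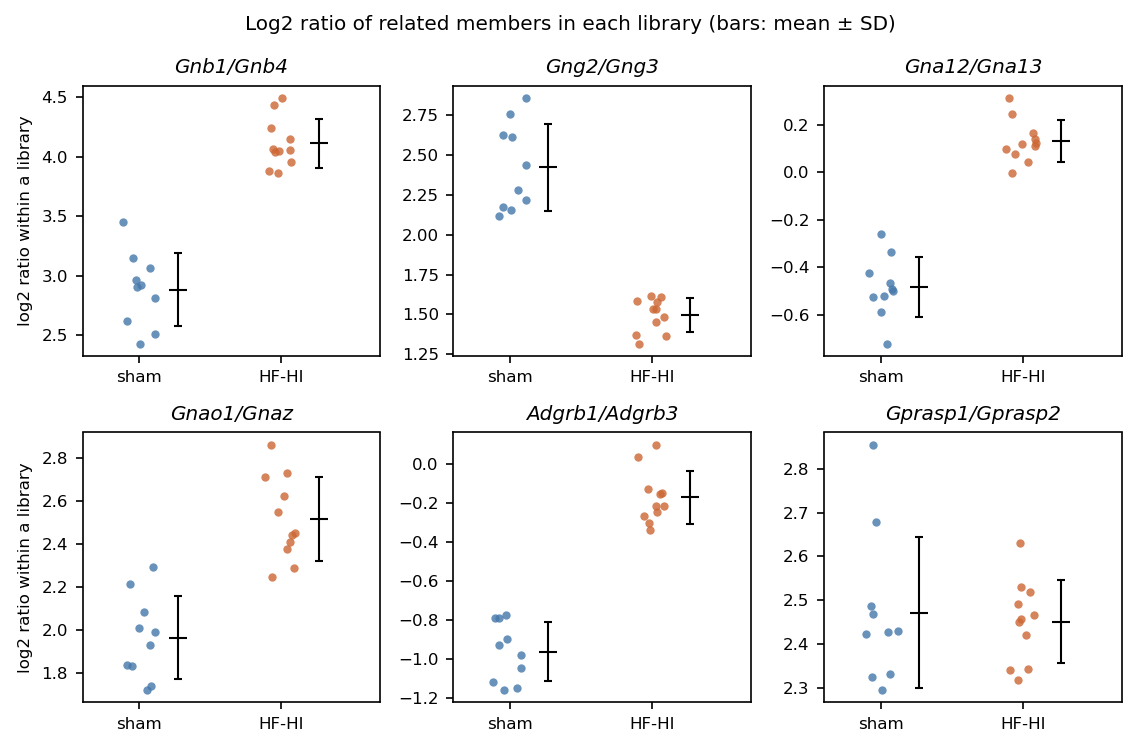
Log2 ratio of 2 related genes within each library (vertical axis) for 6 of the 19 pairs, in sham (blue, n = 10) and HF-HI (orange, n = 11), with the mean ± SD beside the points. Gnb1/Gnb4, Gng2/Gng3, Gna12/Gna13 and Adgrb1/Adgrb3 show no overlap between the groups, and Gprasp1/Gprasp2 differs by -0.020.

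The exonic GC content of the members differed between the calls. Its median was 54.9% in the 23 members that were higher, 44.3% in the 12 that were lower and 49.5% in the 19 not past the threshold. Across the 54 genes, which share libraries and are not independent, Spearman's rank correlation between difference and GC content was 0.61, against 0.48 over the 5539 genes with a GC content, and it was 0.022 and 0.00047 with the trend removed. The slope of this trend, in log2 units for each 10% of GC, averaged -0.11 over the sham libraries (SD 0.078) and 0.096 over the HF-HI libraries (SD 0.060). These means differed (permutation test, two-sided, p = 6e-05). Single libraries overlapped, with slopes from -0.23 to 0.0058 in sham and from -0.039 to 0.16 in HF-HI.

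With the trend removed, 13 of the 23 rises kept their call and 7 changed sign, and 7 of the 12 falls kept theirs and 1 changed sign. Gnb1 has a GC content of 47.2% and Rgs7 of 41.0%, and their differences did not shrink. Adgrb1 and Adgrb2, with the highest GC contents of 64.0% and 62.8%, kept 0.32 of 0.71 and 0.21 of 0.57. Grk6, Gpr37l1 and Rgs12 became lower, by 0.21, 0.27 and 0.23. Removing the trend would also remove a biological difference that follows GC content, and the part of each was not tested.

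**Figure D4:**
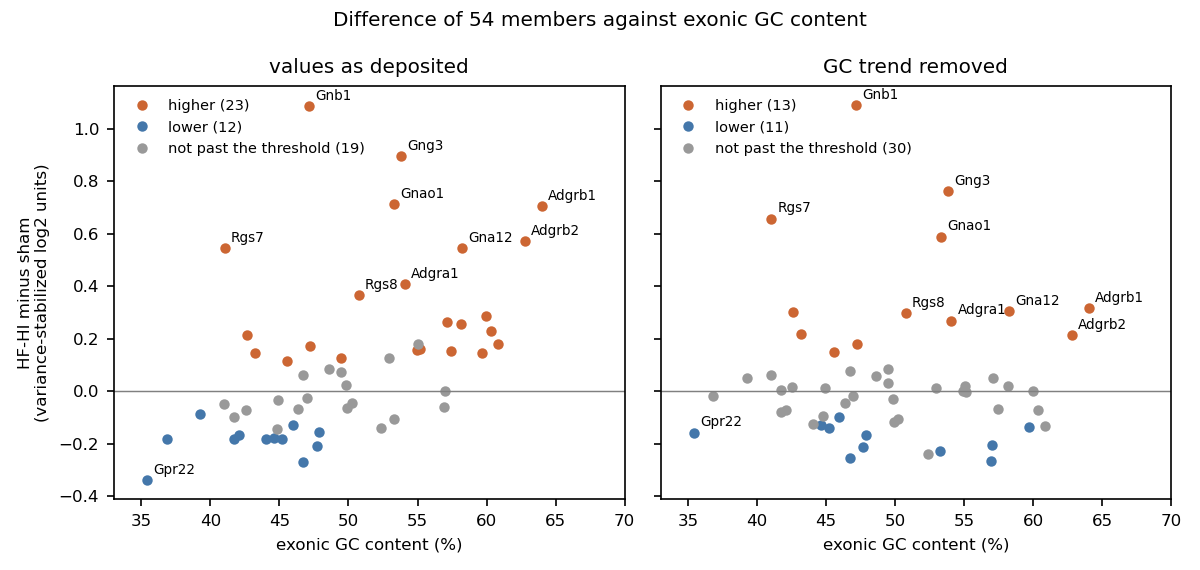
Difference between HF-HI and sham (vertical axis, variance-stabilized log2 units) of the 54 genes against the GC content of their exons in percent (horizontal axis), as deposited on the left and with each library's GC trend removed on the right. Colors give the call, with 23 higher and 12 lower on the left and 13 and 11 on the right. On the right Gnb1 and Rgs7 stay high at 1.09 and 0.66, Adgrb1 and Adgrb2 lie at 0.32 and 0.21, and Grk6 lies at -0.21.

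Several members are known for high levels in striatal neurons, and the level of striatal markers was therefore measured in each cortex library. This comparison was chosen after the values had been seen. The mean of 7 striatal neuron markers (Drd1, Adora2a, Ppp1r1b, Penk, Pde10a, Adcy5 and Foxp1) ran from 10.51 to 10.92 in sham and from 10.15 to 11.26 in HF-HI, and the difference between the group means of 10.71 and 10.76 was within the spread between mice (permutation test, two-sided, p = 0.63). This mean pools markers that moved in opposite directions: Foxp1 was higher by 0.39 and Drd1 lower by 0.36 (adjusted p = 5.0e-06 and 0.0069), and the other 5 were not past the threshold. The level was most apart from the group mean in HF-HI 3, HF-HI 4 and HF-HI 5. Rgs9, Gng7 and Gnal, which are all known to be abundant in striatum, were among the members with a correlation over 0.6 with this level in both groups.

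Rgs9 ran from 9.74 to 10.31 in sham and from 9.06 to 10.44 in HF-HI. Its correlation with the marker level was r = 0.91 in sham (Spearman's coefficient 0.94, permutation p = 0.00030 and 0.00013) and r = 0.96 in HF-HI (Spearman's coefficient 0.93, permutation p = 3.0e-05 and 0.00011), and 0.81 and 0.88 without the 2 libraries farthest from the median. For Gng7 they were r = 0.95 (Spearman's coefficient 0.81, permutation p = 0.00012 and 0.0072) and r = 0.88 (Spearman's coefficient 0.92, permutation p = 0.00023 and 0.00027), and 0.88 and 0.80 without the 2 libraries. Adjusted over 108 relations, Rgs9 and Gng7 had adjusted p of 0.0054 and 0.0038 in sham, and of 0.0022 and 0.0050 in HF-HI by Pearson's r, and Gng7 in sham had 0.071 by Spearman's coefficient.

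For Gnal r was 0.77 in sham and 0.92 in HF-HI (permutation p = 0.0097 and 0.00014), and Spearman's coefficient was 0.52 and 0.83 (permutation p = 0.13 and 0.0028). It was past the adjusted threshold by r in HF-HI (adjusted p = 0.0038) and not in sham (0.075). Without the 2 farthest libraries r was 0.55 and 0.79. By Pearson's r, Rgs8, Rgs2, Gprin3 and Gpr155 were also past the adjusted threshold in HF-HI (r = 0.83, 0.82, 0.87 and 0.80, permutation test, adjusted p = 0.020, 0.020, 0.010 and 0.042). In sham they were not (r = 0.24, 0.14, 0.48 and 0.55). Gna11 and Rgs12 were past it in sham (r = 0.82 and 0.80, permutation test, adjusted p = 0.042 each) and not in HF-HI (r = 0.080 and 0.19). With the marker level as a covariate, Rgs9 was lower by 0.11 and Gng7 higher by 0.13 (adjusted p = 0.032 and 0.042). Gnb4 and Gprin3 also became past the threshold (-0.16 and -0.13, adjusted p = 0.015 and 0.035). Rgs8, Rgs2 and Gpr155 stayed past it (0.35, 0.13 and -0.19). Without HF-HI 3, HF-HI 4 and HF-HI 5, Gng7 and Gnal were higher by 0.22 and 0.12 (adjusted p = 0.044 and 0.041) and Rgs9 differed by 0.031. Without the same libraries, Gnb2, Gpr162, Gpr26 and Gprasp2 were no longer past the threshold (0.18, 0.11, 0.11 and -0.14, adjusted p = 0.056, 0.098, 0.090 and 0.085), and Gpr155 differed by -0.11 and stayed past it. Gnb1, Gnao1 and Gng3 differed by 1.08, 0.68 and 0.89.

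**Figure D5:**
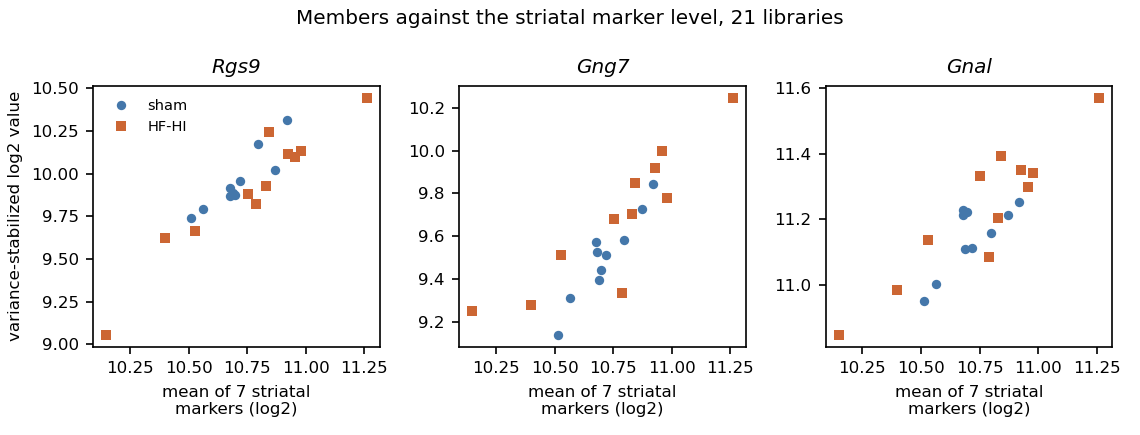
Variance-stabilized log2 value (vertical axis) of Rgs9, Gng7 and Gnal against the mean of 7 striatal neuron markers (horizontal axis) in 10 sham (blue circles) and 11 HF-HI (orange squares) libraries. The 3 genes rise with the marker level within both groups, and the libraries at both ends of the axis are HF-HI.

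Lists of other genes of the pathway were examined in the same fit. Of 21 effector genes listed, 15 were in the table, with 4 higher and 2 lower and a median difference of 0.041. Over all genes 32.6% were higher and 33.6% lower (29.2% and 31.0% with the GC trend removed). Kcnj9, a potassium channel subunit that beta-gamma opens, was higher by 0.39, Arhgef11, an exchange factor that G12 and G13 activate, by 0.29, and the adenylyl cyclase gene Adcy6 by 0.28 (adjusted p = 2.9e-07, 1.0e-05 and 4.8e-05). The phospholipase genes Plcb4 and Plcb1 were lower by 0.27 and 0.15 (adjusted p = 0.0038 and 0.0030). With the GC trend removed, 5 of the effector genes were higher and 3 lower, and Adcy6 (0.085, adjusted p = 0.057) and Plcb1 (-0.065, adjusted p = 0.12) were no longer past the threshold.

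Of 9 genes for folding and exchange regulators of G proteins in the table, 1 was higher and 5 were lower, beside 32.6% and 33.6% of all genes, with a median of -0.14, and 2 were higher and 4 lower with the GC trend removed. Ppp1r9b (spinophilin), a scaffold that binds RGS proteins, was higher by 0.70. Cct2, a chaperonin subunit, and Pdcl, a phosducin-like protein, which fold beta subunits, were lower by 0.26 and 0.22, and Rack1, a relative of the beta subunits in the ribosome, by 0.38 (adjusted p = 9.1e-07, 5.1e-07, 3.8e-05 and 3.3e-07). Gnb1 thus rose while these folding genes fell.

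Of 75 other receptor genes listed, those with known ligands and the Celsr and Adgrl adhesion receptors, 27 were in the table, with 11 higher and 7 lower and a median of 0.032. Over all genes 32.6% were higher and 33.6% lower (29.2% and 31.0% with the GC trend removed). The muscarinic receptor gene Chrm1 was higher by 0.62, Adcyap1r1 (the PACAP receptor) by 0.54 and Ntsr2 by 0.47 (adjusted p = 8.0e-07, 5.1e-06 and 4.7e-09). The glutamate receptor gene Grm5 was lower by 0.39, Drd1 by 0.36 and the cannabinoid receptor gene Cnr1 by 0.19 (adjusted p = 2.2e-07, 0.0069 and 0.0088). The 4 higher adhesion receptors of the members sat beside Celsr2, Celsr3 and Adgrl1, higher by 0.35, 0.34 and 0.45, and Adgrl2 and Adgrl3, at 0.015 and -0.011 and not past the threshold, genes that were picked after their values had been seen. With the GC trend removed, Celsr2, Celsr3 and Adgrl1 were higher by 0.096, 0.12 and 0.19, Adgrl3 was higher by 0.089 (adjusted p = 0.022), and Cnr1 was no longer past the threshold (-0.14, adjusted p = 0.058). Over the list, 11 were then higher and 8 lower.

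Markers of cell types were counted beside the 66.3% of all genes that were called. Of 15 neuron markers 11 were higher and 1 lower, with a median of 0.37 (10 and 1 with a median of 0.22 with the GC trend removed) and a mean level of 11.55 to 11.75 in sham and 11.95 to 12.07 in HF-HI, and of 11 cortical projection neuron markers 7 were higher and 0 lower (median 0.24). Of 7 interneuron markers 3 were higher and 0 lower, of 10 oligodendrocyte markers 2 and 0, of 4 oligodendrocyte precursor markers 2 and 1, of 3 microglia markers 1 and 2, and of 2 blood markers and 1 choroid plexus marker 0. The part of the neuron markers in the rises of Gnb1, Gng3, Gnao1 and Rgs7 was not tested. Relative depth ran from 0.58 to 1.26 in sham and from 0.55 to 1.63 in HF-HI (permutation test, two-sided, p = 0.11), and total depth is unknown.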

How the data were processed

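Stranded total RNA libraries of mouse cortex (10 sham and 11 HF-HI mice) were made after ribosomal RNA removal. The authors aligned reads to mm10 with STAR, counted transcripts with eXpress and deposited DESeq2 variance-stabilized log2 values for 5544 Ensembl genes. The versions of STAR and eXpress and the strand setting of the counting are not given in the sources used here. Counts were not used here, so no count model was fitted and total depth is unknown.

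Groups and replicate numbers came from the labels. Symbols, positions and exonic GC content came from GENCODE vM21 (GRCm38, the mm10 assembly). The group difference of every gene was fitted in R 4.3.3 with limma 3.58.1 (two-sided, moderated with a mean-variance trend), and a gene was called at a Benjamini-Hochberg adjusted p under 0.05 over the whole table. GC trends were removed per library with a lowess curve of span 0.3 on deviations from the mean of all libraries, for the 5539 genes with a GC content. Permutation tests used 100000 resamples (Python 3.11.15, scipy 1.17.1). Scripts were tested on simulated data. Same-numbered samples were treated as unpaired. The spread between mice limits the precision. Its median over the members was an SD of 0.12 in a group.

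Members given in full are, among those past the threshold, the largest rise and fall of each class and the 12 largest differences over all classes, with the 3 largest in each direction named from each pathway list. The members, lists and tests were chosen with earlier results of these data known. Relative depth, the striatal marker level and 3 left-out libraries were added after seeing the data, and the remaining alternatives were another threshold, a minimum difference, eBayes without a trend, the Wilcoxon test, median centring, quantile normalization, the lowest quartile left out, the replicate block and fits that each leave out 1 library. The authors' comparisons were not used. The values of 1 member are not reported here.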

Additional observations from a re-analysis of the deposited data

Results flagged for a closer look

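The level of Rgs4 in sham 5 was 12.7, apart from the other 9 sham libraries. Its gap to the nearest library, at 12.99, was 0.53 of the range of the group, above the 95% critical value of Dixon's test, and the sham median was 13.09. This was 1 of 54 sham groups tested, and chance marks about 1 group in 20. The HF-HI group has over 10 libraries and was not tested.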

How the results depend on the processing

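A minimum difference of 0.25 left 12 members higher and 2 lower, and in the classes 3 G alpha, 1 G beta, 2 RGS, 0 Gprasp and Gprin, 2 Gpr and 3 adhesion receptor genes. The share of all genes called was not computed at this minimum. It was also not computed for the other settings below, except median centring and the removed GC trend alone. Counts without such a share are not set against the whole table. The Wilcoxon rank-sum test and the fit without the 3 libraries apart in striatal markers each left 1 G beta gene, and leaving out the lowest quartile, which also removed 12 members from the test, left 1 G gamma gene. With the GC trend removed 13 members were higher, with 2 G alpha and 1 G beta genes called, and with that trend removed and the replicate block 13, 3 and 1. Median centring raised the interneuron and the oligodendrocyte marker calls to 5 each, and removal of the GC trend raised the oligodendrocyte calls to 4. Leaving out each library in turn gave 1 to 3 G beta genes and 1 to 2 kinase and arrestin genes. Rgs2 lost its call in 14 of the 21 such fits. With relative depth as a covariate Rgs2 (0.14), Gnb2 (0.095) and Gpr162 (0.0998) lost theirs. Under the same covariate Gnb5 (-0.12, adjusted p = 0.044) and Gpr37l1 (-0.10, adjusted p = 0.028) were called lower.

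Most differences that changed sign lay near 0 after the change, though not all did before it. With the GC trend removed, 7 of the 23 members called higher and 1 of the 12 called lower changed sign. Among them were Gpr137 and Gprin1, at 0.29 and 0.23 as deposited. The differences that changed sign were Grk3 and Grk6 with median centring (-0.029 and -0.050) and quantile normalization (-3.2e-05 and -0.037). With relative depth as a covariate they were Gnaq (0.0021) and Grk6 (-0.037), with the striatal marker level Grk6 (-0.00021), and without the 3 libraries Rgs9 (0.031), Grk3 (-0.0098) and Grk6 (-0.0062). With the GC trend removed they were Gpr137 (-0.00038), Rgs5 (0.063), Gnas (-0.066), Gnb2 (-0.13), Gnai2 (-0.00092), Adgrb3 (0.050), Gpr162 (-0.13), Gnaz (-0.00039), Grk3 (-0.028), Gng2 (0.013), Gprin3 (0.0054), Gnai1 (0.018), Gprin1 (-0.069) and Grk6 (-0.21), and the ratios Gnai1/Gnai2 (0.019), Gnas/Gnal (-0.13), Gng7/Gng12 (-0.13), Gprasp1/Gprasp2 (0.039) and Gprin1/Gprin3 (-0.075). With the trend removed and the replicate block they were Rgs5 (0.067), Gnas (-0.064), Gnb2 (-0.12), Gnai2 (-0.020), Adgrb3 (0.051), Gpr162 (-0.13), Grk3 (-0.029), Gng2 (0.011), Gprin3 (0.011), Gnai1 (0.023), Gprin1 (-0.077) and Grk6 (-0.21). Leaving out each library in turn moved Grk6 from -0.014 to 0.018, Grk3 from -0.0054 to 0.038, Rgs9 from -0.098 to 0.041 (positive without HF-HI 3) and the log2 ratio Gprasp1/Gprasp2 from -0.040 to 0.022. The cause of these changes was not tested.

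Same-numbered sham and HF-HI libraries did not deviate together (10 pairs, correlations from -0.31 to 0.36, 4 of them over 0.1, and 1 HF-HI library closest to its own number), so the numbers were not taken as pairs. With the replicate block 23 members were higher and 10 lower, and the share over all genes was not computed. Adgrb3 (-0.090) and Gprasp2 (-0.16) lost their calls, and no other member changed.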
